A study of Drosophila melanogaster with 33 samples.

Results

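The septate junction genes *cora*, *Nrx-IV*, *Nrg*, *sinu*, *kune*, *Mcr*, *Gli*, *Cont* and *Lac* encode structural proteins of the occluding junction of late embryonic epithelia in *Drosophila melanogaster*. They were taken by name as 9 of the 18277 genes annotated on the 7 chromosome arms. No measured value entered the rule, but earlier results of these data were known when they were chosen. For each gene, the summits of Lola-I ChIP-seq peaks were located within 200 bp of its transcription start sites (TSSs) and inside its introns. Lola-I is one of the many proteins made from *lola* by alternative splicing, which share a BTB domain and mostly differ in their zinc fingers. The series holds 33 samples in 12 groups, of which the 2 Lola-I libraries from wild-type OregonR embryos 14 to 17 h old were used, each precipitated with a rabbit polyclonal antibody against Lola-I. They have no treatment or mutant allele, and each has 1 deposited peak list. Whole embryos were used, so strong occupancy in few cells and weak occupancy in many cannot be told apart, and epithelia are not separated from other tissues.

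Septate junctions run below the adherens junctions along the lateral membranes of ectodermal epithelia and of glia, where they block diffusion between cells. A core complex of cell adhesion proteins, claudin family proteins and a cytoplasmic scaffold assembles during the second part of embryogenesis, and the junction of 3 cells is closed by a separate set of proteins. Loss of a single core protein usually disrupts the whole complex.

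The replicate 1 list holds 1750 peaks on the arms and the replicate 2 list 9665, with median fold enrichments of 4.42 and 5.44. The lowest −log10 p-value was nearly equal in both lists, at 5.20 and 5.16. Sequencing depth is not part of a peak list and is unknown here. Fold enrichment, score and −log10 p-value are the authors' own values for each peak, and a rank is the position of a peak by score within its own list, with 1 as the highest. Score classes are 10 equal groups of the replicate 2 list in order of score.

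Of the 9 septate junction genes, 6 had a Lola-I summit within 200 bp of a TSS in replicate 2, and these were *cora*, *Nrx-IV*, *Nrg*, *Gli*, *Cont* and *Lac*. None of the 9 had one in replicate 1, and so none had one in both lists. Over all genes, such a promoter summit was present for 4.56% in replicate 1, for 25.4% in replicate 2 and for 4.32% in both, and among protein-coding genes for 30.9% in replicate 2. Introns held a replicate 2 summit in 4 of the 9 genes, *cora*, *Nrx-IV*, *Nrg* and *Lac*, and in no case a replicate 1 summit. The shares over all genes were 1.79% in replicate 1, 8.46% in replicate 2 and 1.71% in both, and 12.2% in replicate 2 among genes with an intron. *sinu*, *kune* and *Mcr* had neither kind of summit. The 12 promoter and intronic summits of the 9 genes all came from replicate 2, and a replicate 1 peak overlapped 0 of them, so their values have no replicate check. No test was run on these counts.

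**Figure D1:**
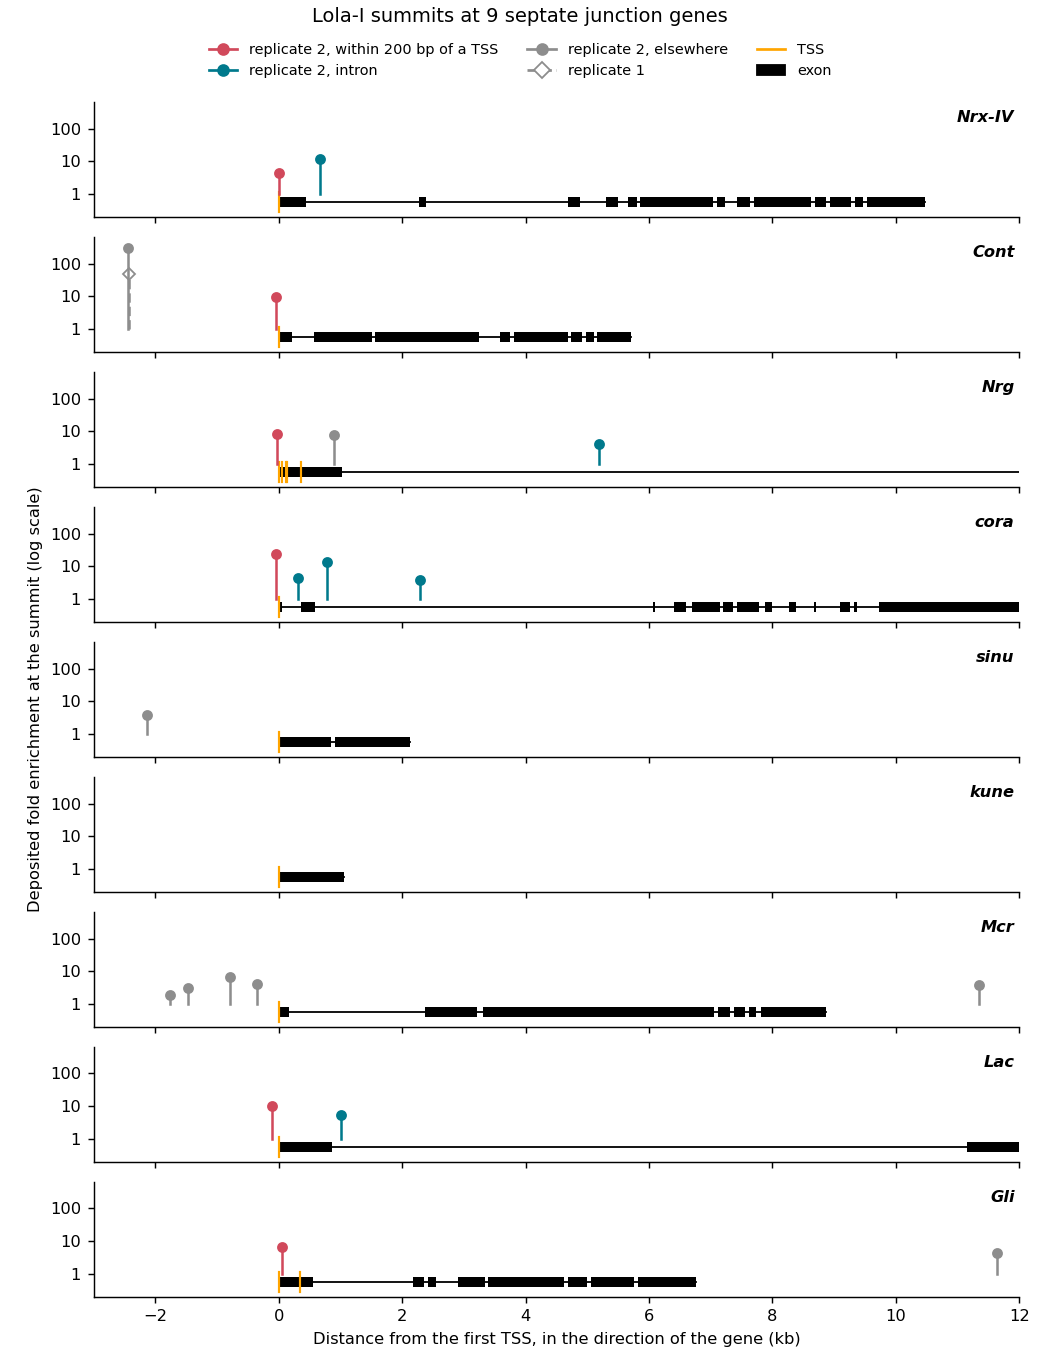
Lola-I summits around the 9 septate junction genes. The x axis is the distance in kb from the first TSS in the direction of the gene, cut at -3 and 12 kb so that the 3′ parts of *Nrg*, *cora* and *Lac* are not shown, and the y axis is the deposited fold enrichment on a log scale. Filled circles are replicate 2 summits, coloured by place, and the open diamond is a replicate 1 summit; black boxes are exons. *cora* had 1 promoter and 3 intronic summits, while *sinu*, *kune* and *Mcr* had none within 200 bp of the TSS or in an intron.

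The sequences upstream of the TSS are shown for members of each kind, together with the intronic peak regions of *Nrx-IV* and *Nrg*, because the presence of a summit and the words under it differ between them. They are from RefSeq Release 6 (dm6), read in the direction of the gene, 150 bases up to the base before the first TSS or, at *Cont* and *sinu*, from the end of the exon of the neighbouring gene. The intronic regions are 201 bases centred on the summit. Capitals mark exact matches on either strand to any of 7 words. The first, AAAGCT, and the second, AAGCTT, are known from earlier results of these lists. The GAGA element was sought as GAGAG and the DRE of core promoters as TATCGATA. An E-box was sought as CAGCTG, the site of Grainyhead as AACNGGTT and the initiator as TCAGT. Where AAAGCTT is present, the first and second words overlap. The *Nrx-IV* upstream region is chr3L:12146369-12146518 on the plus strand and its first-intron peak chr3L:12147083-12147283. The *Nrg* regions are chrX:8517223-8517372 and chrX:8522463-8522663, both plus strand. *Cont* is shown at chr3R:4381211-4381305 on the plus strand, *Gli* at chr2L:15762759-15762908 on the minus strand, *sinu* at chr3L:5561599-5561700 on the minus strand and *Mcr* at chr2L:8082983-8083132 on the minus strand, where an antisense RNA gene, *asRNA:CR45257*, has an exon.
Nrx-IV upstream: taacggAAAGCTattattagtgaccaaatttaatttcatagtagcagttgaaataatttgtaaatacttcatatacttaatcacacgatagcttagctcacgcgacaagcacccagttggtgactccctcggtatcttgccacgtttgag
Nrx-IV first intron: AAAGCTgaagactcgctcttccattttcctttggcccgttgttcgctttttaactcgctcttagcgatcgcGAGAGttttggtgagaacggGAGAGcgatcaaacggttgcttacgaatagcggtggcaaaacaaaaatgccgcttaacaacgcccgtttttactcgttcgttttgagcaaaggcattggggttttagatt
Nrg upstream: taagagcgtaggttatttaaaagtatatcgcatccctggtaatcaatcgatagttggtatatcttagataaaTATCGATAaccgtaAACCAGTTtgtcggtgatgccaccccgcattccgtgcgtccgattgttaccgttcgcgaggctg
Nrg first intron: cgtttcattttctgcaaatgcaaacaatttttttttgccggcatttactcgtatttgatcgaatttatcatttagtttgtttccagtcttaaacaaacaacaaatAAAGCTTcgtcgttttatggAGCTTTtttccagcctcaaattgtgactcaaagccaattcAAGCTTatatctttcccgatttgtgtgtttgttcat
Cont upstream: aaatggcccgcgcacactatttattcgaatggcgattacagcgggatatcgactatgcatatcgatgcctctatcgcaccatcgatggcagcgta
Gli upstream: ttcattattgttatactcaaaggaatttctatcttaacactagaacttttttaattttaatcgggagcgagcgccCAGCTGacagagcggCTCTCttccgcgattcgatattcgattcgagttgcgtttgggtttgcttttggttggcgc
sinu upstream: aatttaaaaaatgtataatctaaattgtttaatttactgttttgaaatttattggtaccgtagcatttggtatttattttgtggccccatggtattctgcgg
Mcr upstream: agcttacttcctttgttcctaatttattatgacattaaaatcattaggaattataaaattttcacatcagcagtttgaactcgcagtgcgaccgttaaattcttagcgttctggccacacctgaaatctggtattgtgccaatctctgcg

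The adhesion complex of the junction has *Nrx-IV*, *Cont* and *Nrg* among its members. *Nrx-IV* encodes a neurexin-family transmembrane protein at the centre of the complex (FBgn0013997, chr3L:12146519-12156990, plus strand). No replicate 1 summit lay closer than 57466 bp to its TSS. In replicate 2 the promoter summit was 12 bp downstream of the TSS, with a fold enrichment of 4.39, a −log10 p-value of 29.5 and rank 6027 of 9665. A stronger summit lay 664 bp downstream of the TSS in the first intron, which is 1831 bp long, with a fold enrichment of 12.0, a −log10 p-value of 170 and rank 2115. Its promoter peak was thus the weaker of its own 2 peaks, and 70.2% of the 4636 genes with a replicate 2 promoter summit had a higher-ranked one.

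*Cont* encodes Contactin, a GPI-anchored immunoglobulin protein of the same complex (FBgn0037240, chr3R:4381306-4387018, plus strand). Its only promoter or intronic summit was 43 bp upstream of the TSS in replicate 2, with a fold enrichment of 9.67, a −log10 p-value of 111 and rank 2778. A peak in both lists lay farther upstream, at -2429 bp in replicate 1, where it was 49.4-fold enriched at rank 28 of 1750, and at -2443 bp in replicate 2, where it was 291-fold enriched at rank 26. That shared summit was farther than 200 bp from the TSS of *Cont* and therefore does not count for it. It was within 200 bp of the TSS of *Sfxn1-3*, the neighbouring gene.

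*Nrg* encodes Neuroglian, an L1-type immunoglobulin adhesion protein (FBgn0264975, chrX:8517373-8555170, plus strand), and has 5 distinct TSSs close together. The replicate 2 summit was 32 bp upstream of the first TSS and 89, 147, 168 and 400 bp upstream of the others, with a fold enrichment of 7.94, a −log10 p-value of 82.5 and rank 3340. A second replicate 2 summit lay 901 bp downstream of the first TSS, with a fold enrichment of 7.39, rank 4190 and a width of 752 bp. It fell in untranslated exon sequence of a transcript from a later TSS, and in the first intron of those from the first TSS. Bases exonic in any transcript were not taken as intronic, so this summit counts neither as a promoter nor as an intronic summit. The intronic summit of *Nrg*, 5190 bp downstream of the first TSS, was among the lower peaks, with a fold enrichment of 4.01, a −log10 p-value of 18.3 and rank 7731. In replicate 1 the nearest summit was 56465 bp away.

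*cora* encodes Coracle, a FERM-domain scaffold protein that binds the cytoplasmic tail of Nrx-IV (FBgn0010434, chr2R:19229063-19243751, plus strand). It had the highest-ranked promoter summit of the 6 genes, 52 bp upstream of the TSS, with a fold enrichment of 22.9, a −log10 p-value of 441 and rank 1166. Only 13.7% of the genes with a replicate 2 promoter summit had a higher-ranked one. Even so, the nearest replicate 1 summit was 25010 bp away.

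The introns of *cora* held 3 further summits in replicate 2. One lay 313 bp downstream of the TSS in the first intron, which is 309 bp long, and was 4.28-fold enriched at rank 6626. In the second intron, 5467 bp long, a summit at 788 bp had a fold enrichment of 13.1, a −log10 p-value of 202 and rank 1911, and a summit at 2282 bp was 3.66-fold enriched at rank 7196. The summit at 788 bp was the highest-ranked intronic summit of the 9 genes.

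*Lac* encodes Lachesin, a GPI-anchored immunoglobulin protein of the junction (FBgn0010238, chr2R:12453190-12465630, plus strand). Its replicate 2 promoter summit was the farthest upstream of the 6, at -108 bp, with a fold enrichment of 10.3, a −log10 p-value of 181 and rank 2028. A lower summit lay 1015 bp downstream of the TSS in the first intron, which is 10285 bp long, with a fold enrichment of 5.48, a −log10 p-value of 51.7 and rank 4367. A peak at *Dh44-R2*, beyond the 3′ end of *Lac*, was the nearest in replicate 1, at 21155 bp, 23.7-fold enriched at rank 97. That peak was 125-fold enriched at rank 136 in replicate 2.

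*Gli* encodes Gliotactin, a cholinesterase-like transmembrane protein at the tricellular corners (FBgn0001987, chr2L:15756002-15762758, minus strand). It has 2 TSSs, and the replicate 2 summit was 58 bp downstream of the first and 292 bp upstream of the second. Its fold enrichment was 6.68, its −log10 p-value 87.4 and its rank 3224. The introns of *Gli*, 2289 bp in all, held no summit, and the nearest replicate 1 summit was 116417 bp away, the greatest such distance of the 9 genes.

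The genes without a promoter or intronic summit include both claudin family members. *sinu* encodes Sinuous (FBgn0010894, chr3L:5559470-5561598, minus strand), and the nearest replicate 2 summit lay 2139 bp upstream of its TSS, with a fold enrichment of 3.79 and rank 6316. That summit was within 200 bp of the TSSs of *Sras* and *ScsbetaG*. The nearest replicate 1 summit, 6566 bp upstream, had a fold enrichment of 2.88 and rank 1418 of 1750. *kune* encodes Kune-kune (FBgn0033032, chr2R:5671741-5672800, plus strand), with the nearest summits 20193 bp away in replicate 2 and 30738 bp away in replicate 1. The claudin family gene *pck*, from the wider list of septate junction genes, also had no promoter or intronic summit in either list.

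*Mcr* encodes a complement-related protein of the α2-macroglobulin family that is needed for junction assembly (FBgn0267488, chr2L:8074117-8082982, minus strand). Its nearest replicate 2 summit was 354 bp upstream of the TSS, outside the 200 bp limit, 4.11-fold enriched at rank 6894, and lay at -84 bp from the TSS of *Bsg*. A higher peak at -787 bp had a fold enrichment of 6.76 and rank 2765, and further summits lay at -1477 and -1767 bp. For these too the nearest TSS was that of *Bsg*, and they lay 349, 1039 and 1329 bp downstream of it. In replicate 1 the nearest summit was 20047 bp away. With a limit of 500 bp *Mcr* would join the genes with a promoter summit, and with a limit of 100 bp *Lac* would leave them.

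The 6 promoter summits lay between -108 and +58 bp of the first TSS. Among the 4635 replicate 2 promoter peaks the middle 50% lay from -70 to -3.0 bp with a median of -35 bp, so *Lac* lay upstream of that span and *Nrx-IV* and *Gli* downstream. None of the 6 summits was within 200 bp of the TSS of another gene. Of the 14 distinct TSSs of the 9 genes, 9 had one of these same 6 summits within 200 bp. Several of the 9 are TSSs of *Nrg* that share a single summit, so the TSSs are not separate observations. Distances to the nearest summit were taken as 1 value a gene, from its TSS closest to a summit. For replicate 2 their median was 58.0 bp over the 9 genes, against 2926 bp over the 18164 genes not on the Y chromosome, noncoding genes included. With a promoter summit at 6 of the 9 genes, their median could not exceed 200 bp. For replicate 1 the medians were close to each other, at 25010 and 24846 bp.

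In fold enrichment the 6 promoter summits ranged from 4.39 at *Nrx-IV* to 22.9 at *cora*, with a median of 8.80, against a median of 6.01 over the 4636 genes with a replicate 2 promoter summit. None reached the top score class. *cora* fell in the second class, of which 42.3% of the peaks were overlapped in replicate 1. *Lac* and *Cont* fell in the third class, with 9.83% overlapped. *Gli* and *Nrg* fell in the fourth, with 2.90%, and *Nrx-IV* in the seventh, with 0.828%. In the top class the share was 92.3%. The absence of the septate junction promoters from replicate 1 thus goes with ranks at which few replicate 2 peaks of any gene were found in replicate 1, except for *cora*, whose class was split. The part of list length in these counts was not tested beyond the alternatives in the closing section.

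**Figure D2:**
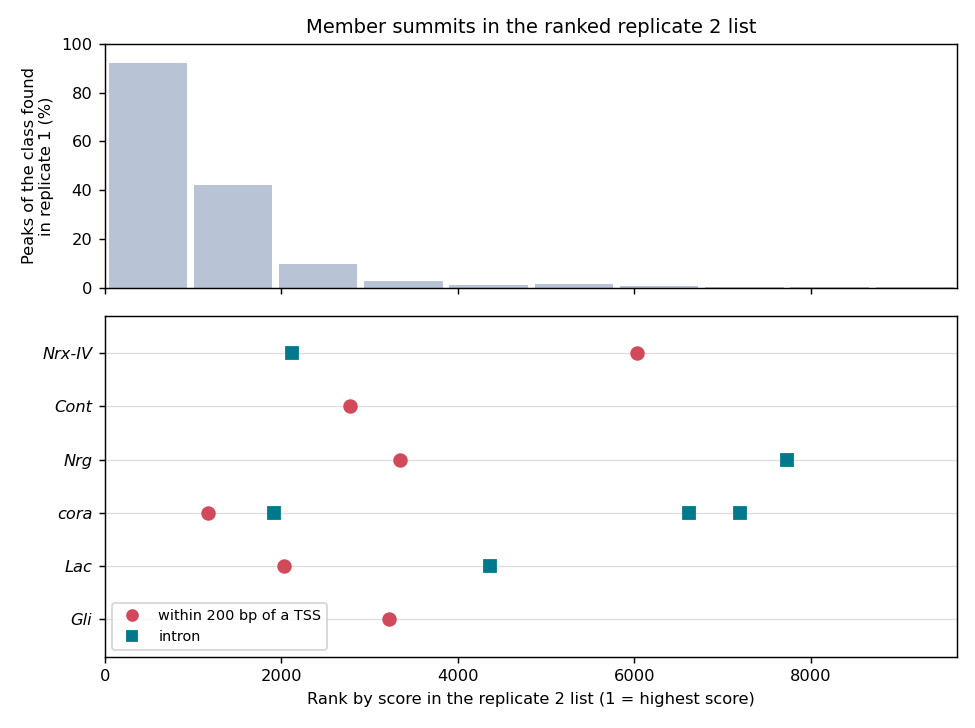
Position of the septate junction summits in the replicate 2 list. The x axis of both panels is the rank by score, with 1 as the highest. Bars in the upper panel give the percentage of the peaks of each score class that were overlapped in replicate 1, from 92.3% in the first class to 0.103% in the last. In the lower panel, circles are summits within 200 bp of a TSS and squares are intronic summits. The highest-ranked summit, at the *cora* promoter, has rank 1166 and lies in the second class.

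Intron length differed between the genes with and without an intronic summit, while those with and without a promoter summit overlapped in it. *kune* has no intron, *sinu* has 64 bp of intron and *Cont* 971 bp, while *Gli* has 2289 bp, *Mcr* 2570 bp, *Nrx-IV* 5335 bp, *cora* 8646 bp, *Lac* 10285 bp and *Nrg* 27807 bp. The median over protein-coding genes was 253 bp. Replicate 2 promoter summits were present for 19.6% of the 9816 protein-coding genes with under 1 kb of intron, the class of *Cont*, *sinu* and *kune*. The share was 50.3% of 2075 genes in the next class, up to 4999 bp, which holds *Gli* and *Mcr*. Among the 2077 genes with at least 5 kb, 64.9% had a promoter summit, as did all 4 septate junction genes of that length.

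Intronic summits followed the same order. They were present for 0.693% of the protein-coding genes with under 1 kb of intron, for 19.0% in the next class, for 43.5% of 1293 genes with 5000 to 19999 bp and for 59.7% of 784 genes with 20000 bp or more. *Nrx-IV*, *cora*, *Lac* and *Nrg*, which all had an intronic summit, belong to the last 2 classes. Of 1347 genes with at least 5 kb of intron and a promoter summit, 57.9% also had an intronic summit. The part of intron length in the counts of the septate junction genes was not tested further. Per length, the introns of the 9 genes held 10.4 summits per 100 kb over 58.0 kb, against 5.41 over all protein-coding genes. The median distance of the 6 intronic summits from the nearest TSS of the gene was 902 bp, against 1973 bp over 3385 intronic summits of protein-coding genes. In the values over protein-coding genes, a summit in introns of several genes counts for each gene. Summits near the TSS of another gene are kept in them. Both values for the 9 genes rest on few summits, with 3 of the 6 in *cora*, which has 8646 bp of intron. Neither difference was tested.

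Words were counted separately under the 6 promoter summits and the 6 intronic summits of the 9 genes. Of the intronic summits, 3 are in *cora*. Differences between these counts were not tested. AAAGCT was present in the 201 bp at 1 of 6 promoter summits, that of *Gli*, against 26.9% of all replicate 2 promoter peaks. AAGCTT was present at 0 of the 6, against 13.4%. At the intronic summits AAAGCT was present at 4 of 6, those of *Nrx-IV*, *Nrg* and *Lac* and the *cora* summit at 788 bp, against 28.8% of 2937 replicate 2 intronic peaks away from any TSS. AAGCTT was present at 2 of these, in *Nrg* and *cora*, against 14.5%. The sequence of the *Nrg* intron shows AAAGCTT and a second AAAGCT match as AGCTTT close to each other, at the lowest-ranked peak of the 12. For comparison, AAAGCT, a word known from earlier results of these lists, was present at 77.1% of the replicate 2 peaks found in replicate 1. It was present at 20.3% of those that were not.

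GAGAG, the element bound by GAGA factor, was present at 3 of 6 promoter summits, those of *Nrg*, *cora* and *Gli*, against 39.5% of replicate 2 promoter peaks. It was present at 5 of 6 intronic summits, with *Nrg* as the exception, against 57.2%, and the *Lac* intronic summit had 10 matches in 201 bp. Overlapping matches each count, so these 10 need not be separate elements. Of the other words, *Nrg* alone had the DRE word, at 1 of 6 promoter summits against 9.80%, and the Grainyhead word, at 1 of 6 against 4.21%. They lie side by side in its upstream sequence. Grainyhead is a transcription factor of barrier epithelia. TCAGT was present at 3 of 6, those of *Cont*, *Gli* and *cora*, against 40.2%, with 5 matches at *cora*. CAGCTG was at 0 of 6, against 17.8%. A match is a description of the letters and not of binding, and no match says only that the letters are not in the window.

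In the window from -150 to +50 bp of the first TSS, *sinu* and *kune* had no match to any of the 7 words, and *Mcr* matched TCAGT alone. The 201 bp at the promoter summits of *Nrx-IV* and *Lac* also had no match to any of the words. The share of all promoters without any match was not counted. AAAGCT was present in 1 of the 9 windows, that of *Nrx-IV*, where it lies at the upstream end, away from the summit at +12 bp, against 15.2% of all promoters. GAGAG was present in 4 of 9, those of *Gli*, *Lac*, *Nrg* and *cora*, against 22.7%. The GC content of the windows was 31.3% at *sinu* and 33.3% at *kune*, the lowest of the 9, then 40.8% at *Mcr*. It was between 42.8% at *Nrx-IV* and 48.8% at *cora* for the 6 genes with a promoter summit. *Mcr* would join these genes at a limit of 500 bp. GC content was not compared with that of all promoters, and its difference between these few genes was not tested.

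The septate junction has many more components, and 27 other genes were examined in the same way. Of these, 18 (66.7%) had a promoter summit in replicate 2, the same share as 6 of 9, and 5 (18.5%) had one in replicate 1. All 5 also had one in replicate 2: *Atpalpha*, *vari*, *bark* (also called *aka*), *wun* and *Tsp2A*. Intronic summits were present for 9 of 27 (33.3%) in replicate 2 and for 3 in replicate 1. Over all genes, promoter summits were present for 25.4% in replicate 2 and for 4.56% in replicate 1, and intronic summits for 8.46% and 1.79%. The median intron length of the 27 was 2285 bp. The difference between 5 of 27 and 0 of 9 in replicate 1 was not tested.

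*Atpalpha* encodes the α subunit of the sodium pump, which has a role in the junction apart from ion transport. Its promoter summit was 16 bp upstream of a TSS with a fold enrichment of 11.7 and rank 271 in replicate 1, and 15 bp upstream with a fold enrichment of 114 and rank 212 in replicate 2. Its introns held 3 summits in replicate 1 and 4 in replicate 2, the highest with fold enrichments of 14.3 and 110. *vari* encodes Varicose, a scaffold protein of the MAGUK family, and its best promoter summits had fold enrichments of 14.5 and 103, at ranks 250 and 300. *bark* encodes Bark beetle, a protein of the tricellular junction like Gliotactin. Its promoter summits had fold enrichments of 4.36 and 28.5 at ranks 834 and 806, against 6.68 at *Gli* in replicate 2 alone.

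*wun* encodes a lipid phosphate phosphatase, with promoter fold enrichments of 19.3 and 79.2 at ranks 135 and 211. *Tsp2A* encodes a tetraspanin of the smooth septate junctions found in the gut, with fold enrichments of 3.61 and 20.9 at ranks 1044 and 1202. Of these 5 genes, *Atpalpha*, *vari*, *bark* and *wun* had a replicate 2 promoter fold enrichment above that of *cora*, the highest of the 9, and *Tsp2A* was just below it.

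By role, the replicate 2 promoter summits of the 27 were found for 3 of 3 sodium pump genes, 3 of 3 adhesion genes (*Fas2*, *Fas3* and *Nrt*) and 3 of 4 basolateral polarity genes, all but *l(2)gl*. They were found for 3 of 4 genes of the smooth junction, all but *hoka*, and for both *wun* and *wun2*. They were found for 1 of 4 Ly6 proteins, which act in junction assembly (*bou*, not *crok*, *cold* or *crim*), and for 1 of 3 other assembly proteins (*pasi2*, not *Tsf2* or *pasi1*). The claudin *pck* and the tricellular gene *M6* had none. The share over all genes was 25.4%. Median intron lengths, from the sodium pump to the other assembly genes in that order, were 6112, 65901, 17080, 921, 6023, 103 and 405 bp. Of protein-coding genes, 19.6% with under 1 kb of intron and 64.9% with at least 5 kb had a promoter summit. The part of intron length in the counts by role was not tested. Among the 13 genes in replicate 2 alone, the fold enrichment ran from 3.47 at *bou* to 18.6 at *scrib*.

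The upstream sequences of 4 of the genes found in both lists are shown for comparison with those of *Nrx-IV*, *Cont*, *Nrg* and *Gli*, which were found in replicate 2 alone. They are from the same genome, 150 bases up to the base before the TSS nearest to the summit, with capitals as above. *Atpalpha* is chr3R:20957584-20957733 on the plus strand, *vari* chr2L:20797043-20797192 on the minus strand, *bark* chr2L:3787017-3787166 on the plus strand and *Tsp2A* chrX:1346403-1346552 on the plus strand.
Atpalpha upstream: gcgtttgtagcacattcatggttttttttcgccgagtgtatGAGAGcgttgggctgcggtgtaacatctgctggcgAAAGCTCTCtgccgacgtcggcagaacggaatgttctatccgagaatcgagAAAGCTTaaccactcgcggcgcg
vari upstream: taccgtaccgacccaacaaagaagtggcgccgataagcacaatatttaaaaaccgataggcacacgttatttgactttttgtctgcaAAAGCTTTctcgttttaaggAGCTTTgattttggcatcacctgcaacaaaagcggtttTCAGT
bark upstream: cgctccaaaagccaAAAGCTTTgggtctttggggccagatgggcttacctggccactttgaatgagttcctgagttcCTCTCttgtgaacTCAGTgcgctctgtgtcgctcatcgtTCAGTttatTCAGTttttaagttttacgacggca
Tsp2A upstream: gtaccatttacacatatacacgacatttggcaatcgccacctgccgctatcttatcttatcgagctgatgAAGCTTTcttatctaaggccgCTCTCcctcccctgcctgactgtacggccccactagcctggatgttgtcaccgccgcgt

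All 4 hold a match to AAAGCT and one to AAGCTT, while the upstream sequences of *Cont*, *Nrg*, *Gli*, *sinu* and *Mcr* hold neither and that of *Nrx-IV* holds AAAGCT alone. Counted at the summits, AAAGCT was present for 5 of the 5 septate junction genes found in both lists. Among the genes found in replicate 2 alone it was present for 1 of 6 of the first list and for 3 of 13 of the wider list, *nrv1*, *bou* and *mesh*. Over all genes and regions, AAAGCT was at 77.1% of replicate 2 peaks found in replicate 1 and at 20.3% of the others. For AAGCTT these shares were 45.1% and 9.66%. The counts of the septate junction genes were not tested against these shares. Both words were known from earlier results of these same lists, so the counts are no separate support for them.

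Genes of the adherens junction and the apical polarity complexes, which lie above the septate junction in the same cells, were examined as a comparison. Of these 14 genes, 10 (71.4%) had a promoter summit in replicate 2 and 1 in replicate 1. The gene in both lists was *sdt*, which encodes Stardust, a scaffold of the Crumbs complex, with fold enrichments of 15.0 and 93.5 at ranks 239 and 285. Intronic summits were present for 5 of 14 (35.7%) in replicate 2 and for 0 in replicate 1. The shares over all genes were 25.4% and 4.56% for promoter summits in replicates 2 and 1, and 8.46% and 1.79% for intronic summits. The median intron length of the 14 was 11800 bp, longer than that of all but *Nrg* among the 9. The corresponding replicate 2 shares of the 9 septate junction genes were 66.7% for promoters and 44.4% for introns, and the differences between the lists were not tested.

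**Figure D3:**
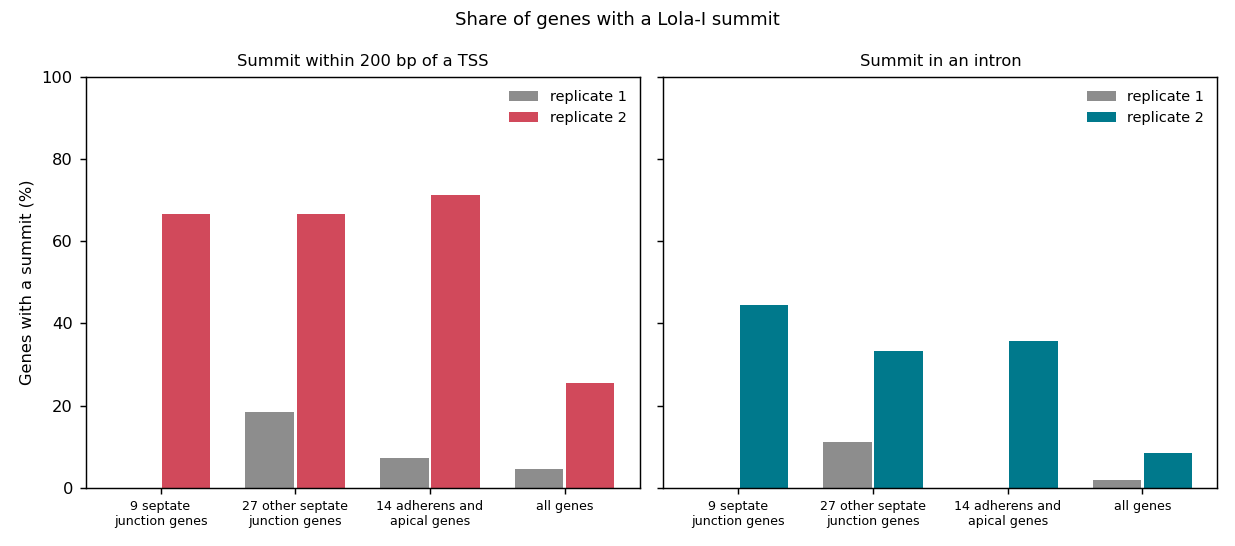
Percentage of genes with a Lola-I summit in the 9 septate junction genes, 27 other septate junction genes, 14 adherens junction and apical genes and all 18277 genes. The left panel counts summits within 200 bp of a TSS and the right panel intronic summits; grey bars are replicate 1 and coloured bars replicate 2. The 9 genes have no bar for replicate 1, and their replicate 2 promoter bar, like that of the 27 other genes, stands at 66.7% against 25.4% over all genes.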

How the data were processed

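Chromatin of wild-type *Drosophila* embryos was immunoprecipitated with an antibody against Lola-I and sequenced, in 2 samples labelled as replicates. Whether they came from separate collections of embryos is not stated. Per the submitters' processing notes, CASAVA 1.8.2, Bowtie 1.0.0 and the dm6 build were used. The peak caller, control and filters are not given in the sources used here. The deposited lists have 10 columns and no header, with 1 list a replicate. The authors' deposited score is 10 times the deposited −log10 p-value with decimals dropped in 11415 peaks, with a −log10 q-value beside it. The deposited fold enrichment was read as a ratio from its column in the narrowPeak layout, and what it is relative to is not stated. These values depend on each library's depth, so ranks were formed within a list. The other 31 samples were not used here.

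Gene models were those of Ensembl release 115 (BDGP 6.54), with transposable elements left out. Sequence was read from the RefSeq Release 6 genome. Both use dm6 coordinates. Peaks were placed by their summits, and an overlap of at least 1 bp counted as found in the other list. Words were matched exactly on both strands in 201 bp windows. Python 3.11.15, NumPy 2.4.6, SciPy 1.17.1 and matplotlib 3.10.9 were used, and the counting was tested on simulated data. With 1 group there was no test. Named were all members, every gene of the wider lists with a promoter summit in both lists, and genes whose TSS lay within 200 bp of a summit described. Further genes of the wider lists and *pck* were named after their values were seen, to complete counts by role. The members, lists and words were chosen with earlier results of these data known. Of the 50 list genes, 1 was matched through a RefSeq synonym. Alternatives were other distances, only the upper 50% of a list by score, a replicate 2 list cut to the length of the replicate 1 list, peak intervals, RefSeq TSSs, and each list alone.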

Additional observations from a re-analysis of the deposited data

How the results depend on the processing

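Depth is unknown, and a single list gives a peak no replicate check. No paired analysis was possible because the libraries form 1 group and no test was run. For the 9 septate junction genes, the replicate 1 promoter count was 0 under all alternatives run. The replicate 2 promoter count was 5 at 100 bp and 7 at 500 or 1000 bp. In the higher-scoring 50% it was 5, without *Nrx-IV*, and the intronic count was 3, without *Nrg*. With the replicate 2 list cut to the length of the replicate 1 list, the promoter count was 1 (*cora*) and the intronic count 0; for the other septate junction genes these were 7 and 2, and for the adherens and apical genes 1 and 0. In the higher-scoring 50%, the intronic replicate 2 counts of these lists were 5 and 2, and the count of other septate junction genes with intronic summits in both lists was 1. Counting genes in both lists was replaced by a single list, leaving out each replicate in turn. The promoter counts then ran from 0 to 6 for the 9 genes, from 5 to 18 for the other septate junction genes and from 1 to 10 for the adherens and apical genes, and the intronic counts from 0 to 4, from 3 to 9 and from 0 to 5.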
